A study of Caenorhabditis elegans with 8 samples.

Results

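Small RNAs of prg-1 worms were compared with those of WT worms for every one of the 9742 piRNAs of Caenorhabditis elegans in the deposited table, using 2 prg-1 and 2 WT libraries of the 8 libraries of the series. All 9742 rows were taken, with no choice by level. Both groups were whole worms and untreated, so the labels set them apart by genotype alone. Neither the prg-1 allele nor the stage of the worms is stated there. Transcripts, of prg-1 or of marker genes, were not measured, so the mutant and its germline content could not be checked in these data. In whole worms, fewer germ cells and less piRNA per germ cell cannot be told apart. The study as a whole concerns casein kinase II in the making of piRNAs, and besides these groups it holds untreated prde-1 worms and kin-3 worms cultured with 500 µM IAA, 2 libraries each.

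PRG-1 is the Piwi-clade Argonaute of worms. It binds piRNAs in the germline, and the complex finds foreign and endogenous transcripts by base pairing, which leads to silencing through secondary small RNAs made by RNA-dependent RNA polymerases. Worm piRNAs are transcribed as short capped precursors from very many separate small genes, most of them in a pair of clusters on chromosome IV, and are then trimmed and loaded onto PRG-1. Loss of PRG-1 is known to remove mature piRNAs. Nearly all listed loci lay in these clusters, with 8018 on chromosome IV from 13 Mb onwards (the large cluster) and 1512 at 4.5 to 7 Mb (the small cluster). A further 103 lay elsewhere on chromosome IV and 109 on the other chromosomes.

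Levels are in RPM as scaled by the authors, reads per 1000000 reads of a library total. The totals to which reads had been scaled, recovered from the values, were 1342764 and 913321 reads for WT replicates 1 and 2, and 969718 and 699884 reads for prg-1 replicates 1 and 2. One read was therefore worth 0.745 and 1.09 RPM in WT and 1.03 and 1.43 RPM in prg-1. Listed piRNAs took 29802 of the WT reads and 378 of the prg-1 reads. Each level is thus relative to the other small RNAs of its library, which were not analysed here.

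The piRNA pool was almost emptied in prg-1. Listed piRNAs summed to 13327 and 13037 RPM in the WT libraries and to 229 and 223 RPM in the prg-1 libraries. Both prg-1 libraries lay far below both WT libraries, at 1.71% of the WT mean (58.3-fold lower, 95% counting interval of the pooled reads 52.7 to 64.7). With 2 libraries against 2 the smallest exact permutation p is 0.333, so summed levels are given with counting intervals and without a test. Of the 9742 piRNAs, 4787 had a read in at least 1 WT library and 109 in at least 1 prg-1 library, and 4921 had none in either group. Both WT libraries held a read for 2251 piRNAs, whereas both prg-1 libraries did for 12. At an equal depth of 699884 reads, that of prg-1 replicate 2, the expected number of piRNAs detected was 2817 ± 7.89 in WT and 51.8 ± 8.15 in prg-1. The SD is between the expected values of the libraries (n = 2 each) and leaves out the spread from drawing reads.

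The large cluster on chromosome IV lost more than the total shows, while the small cluster did so only with 1 locus left out. The large cluster stood at 12255 and 11973 RPM in WT and at 56.7 and 44.3 RPM in prg-1, which is 0.417% of WT (pooled reads 0.424%, 95% counting interval 0.339% to 0.524%). The small cluster stood at 961 and 956 RPM in WT and at 27.8 and 27.1 RPM in prg-1, 2.87% of WT. That higher share came from 1 locus, 21ur-1430, which held 32 of its 46 prg-1 reads. Without it the small cluster stood at 949 and 948 RPM in WT and 11.3 and 4.29 RPM in prg-1, 0.824% of WT (pooled reads 0.884%, interval 0.482% to 1.49%), and this interval overlaps that of the large cluster. That value rests on 14 reads and moved to 0.452% without prg-1 replicate 1 and to 1.196% without prg-1 replicate 2. Other chromosomes went the other way, from 85.6 and 90.9 RPM in WT to 144 and 149 RPM in prg-1. Again 1 locus decided this: without 21ur-9719 on chromosome X they stood at 75.2 and 74.5 RPM in WT and 59.8 and 48.6 RPM in prg-1, so that the prg-1 libraries then lay below WT, at 72.4% (pooled reads 73.6%, interval 56.4% to 95.4%). Of the 108 loci in that sum, 29 had a WT read and 12 a prg-1 read. Of its 92 prg-1 reads, 34 were at 21ur-10824 and 23 at 21ur-10492, so it does not describe a typical locus. By chromosome, 42.0% was left on I (3 prg-1 reads), 66.2% on II, 160% on III and 32.2% on V. With 21ur-9719 and 21ur-1430 left out, all listed piRNAs together were at 0.866% of WT in place of 1.71%.

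**Figure D1:**
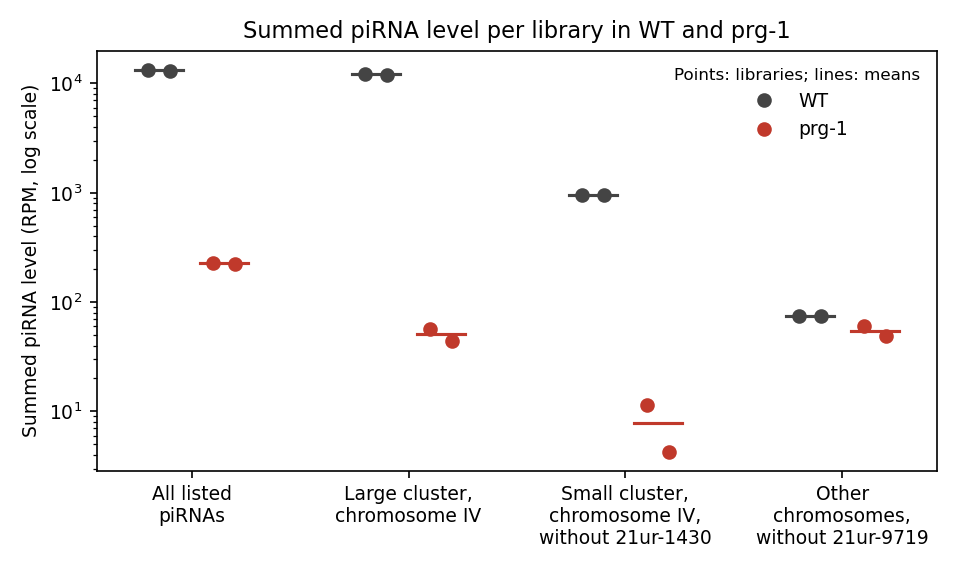
Summed piRNA level of each library (RPM, log scale) in WT and prg-1. Groups are all listed piRNAs, the large cluster of chromosome IV, the small cluster without 21ur-1430, and the other chromosomes without 21ur-9719. The sum of all listed piRNAs includes both loci. Points are libraries and lines are means of 2. The large cluster falls from 12255 and 11973 RPM to 56.7 and 44.3 RPM. The other chromosomes without 21ur-9719, carried in prg-1 by 12 of 108 loci, stay within 48.6 to 75.2 RPM.

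Along the large cluster the loss was similar from one megabase to the next. Between 13 and 14 Mb the 775 listed piRNAs fell from 1248 ± 24.5 to 5.44 ± 0.395 RPM, or 0.436% of WT (means ± SD, n = 2 here and below). The 2494 loci of 14 to 15 Mb, the richest megabase in WT, went from 4347 ± 1.99 to 17.97 ± 5.21 RPM, or 0.413%. The shares remaining were 0.508% at 15 to 16 Mb, 0.323% at 16 to 17 Mb and 0.274% beyond 17 Mb. Counting intervals of these 5 bins all overlap: the highest, at 15 to 16 Mb, runs from 0.343% to 0.737%, and the lowest, beyond 17 Mb with 2 prg-1 reads, from 0.0322% to 0.965%. The 2 strands did not stand apart either, with 0.428% of the WT level left on the plus strand (interval 0.314% to 0.595%) and 0.408% on the minus strand (0.301% to 0.552%). The 103 loci elsewhere on chromosome IV had 50 WT reads and 2 prg-1 reads, too few for more than a wide interval of 0.637% to 20.6% of WT.

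Of the 9742 piRNAs, 695 averaged 1 RPM or more across all 8 libraries of the series and were tested singly on log2(RPM + 1) with limma, a linear model that shares information on the spread across piRNAs. On that scale the fold change of a low piRNA comes out too small. The other 9047 were not tested; they held 34.5% of the WT level, and 4093 of them had a WT read. Limma called 681 of the 695 lower in prg-1, which is 98.0% of those tested, and 3 higher, which is 0.432% (Benjamini-Hochberg adjusted p under 0.05, two-sided). By edgeR with the deposited totals 683 were lower and 2 higher, and by edgeR with DESeq2 size factors 115 and 9. The DESeq2 Wald test, also scaled by the deposited totals, gave 7 and 1. The number of calls thus depends on the tool and scaling. The DESeq2 size factors used with edgeR, and the TMM factors used below, were set from the tested piRNAs alone, nearly all of which fell. Such factors take out part of a loss that these piRNAs share. Both prg-1 values lay below both WT values for 684 (98.4%) and above both for 4 (0.576%). Of the 695, 662 had no prg-1 read at all. The median log2 fold change of the 695 was -3.04, a value set largely by the WT level and the pseudocount since most prg-1 values are 0. Through their WT levels alone, 684 passed the filter, and the other 11 passed only with reads from mutant libraries. The filter thus admitted nearly all of them through the group in which they are high, so the share called lower is largely fixed by it and is no measure of how many of the 9742 fell. Without the filter 2208 of 4878 were called lower.

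The piRNAs most abundant in WT vanished from prg-1. 21ur-6307, outside any annotated gene on the minus strand of chromosome IV (14577635 to 14577655), had 211 and 193 RPM in WT and 1.03 and 0 RPM in prg-1. Its single prg-1 read set against 459 WT reads gives a pooled ratio of 340 (95% counting interval 60.7 to 13446; log2 fold change -7.15, SE 0.34, limma adjusted p = 7.6e-06). The next, 21ur-5695, sits in an intron of the coding gene Y64G10A.7, on its opposite strand (chromosome IV, 14310785 to 14310805, minus). It had 181 and 192 RPM in WT and no read in either prg-1 library. Set against the floor of 3 reads over both prg-1 libraries, 1.80 RPM, it was at least 104-fold lower (log2 fold change -7.55, SE 0.04, limma adjusted p = 1.5e-08). It had no read in any mutant library, so only the WT pair adds spread, and the SE holds no counting error of prg-1. With WT and prg-1 alone in the fit the limma adjusted p was 6.0e-05. The same limit holds for other loci without a mutant read. The WT values of 21ur-6307 and 21ur-5695 lay close together, and no prg-1 value came near them.

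The remaining 8 of the 10 most abundant piRNAs had no prg-1 read. Among them, 21ur-2934, opposite to Y37A1A.4 in one of its introns (chromosome IV, 13948777 to 13948797, minus), had 96.1 and 90.9 RPM in WT, at least 52.0-fold more than in prg-1. 21ur-2822 (16559111 to 16559131, minus strand) and 21ur-7923 (16978968 to 16978988, plus strand), both in no annotated gene of chromosome IV, had WT means of 93.1 ± 3.11 and 89.7 ± 10.98 RPM and were at least 51.8-fold and 49.9-fold lower. 21ur-13680 (17029029 to 17029049, plus strand, antisense to coding sequence of nhr-229, a nuclear hormone receptor gene by its name) had WT levels of 67.8 and 72.3 RPM and fell at least 39.0-fold. These 10 were also the 10 with the largest falls, and all lay in the large cluster. That overlap was fixed in advance, since without prg-1 reads the fold change simply follows the WT mean. Together they held 2302 WT reads and 1 prg-1 read, which puts their level at 0.0587% of WT (interval 0.00149% to 0.327%). The 100 most abundant held 8729 WT reads and 9 prg-1 reads, 0.139% of WT (0.0637% to 0.265%), and 93 of them had no prg-1 read. The WT values that ranked the 10 and the 100 are also the denominators here, so both shares may come out too low. In the small cluster the most abundant piRNA was 21ur-5083 (5980165 to 5980185, minus; opposite to unc-44 in an intron, and in an exon of the noncoding gene B0350.77), with 71.5 and 40.5 RPM in WT and no prg-1 read, at least 31.2-fold lower (limma adjusted p = 5.8e-06). 21ur-9174, the most abundant listed piRNA on the rest of chromosome IV, had 5.21 and 1.09 RPM in WT and no prg-1 read, and was not tested. 21ur-1, which the rule for named piRNAs also holds, was listed at 0 in all 4 libraries.

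**Figure D2:**
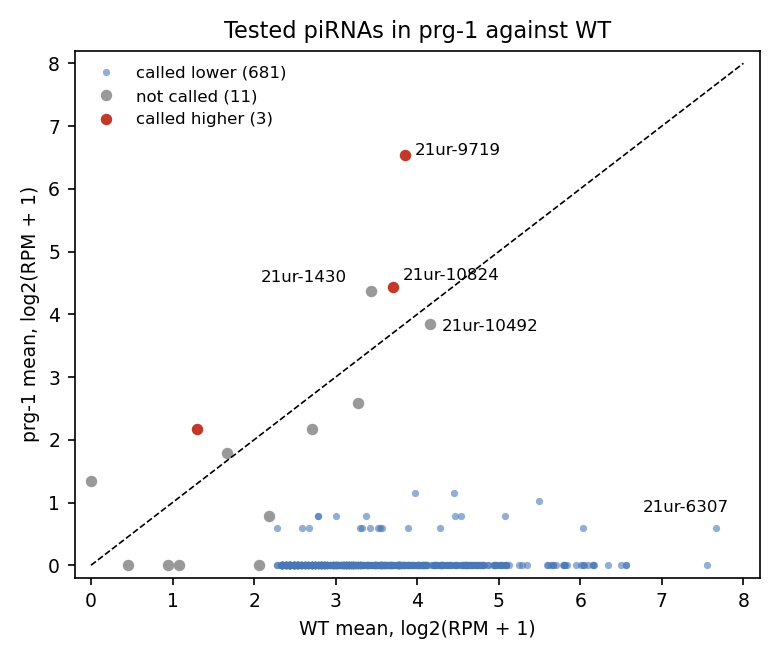
Mean prg-1 level against mean WT level, both as log2(RPM + 1), for the 695 tested piRNAs; each point is a piRNA, colours give the limma call and the dashed line marks equal levels. The 681 piRNAs called lower lie along the bottom at or close to 0 in prg-1, and 21ur-9719 lies farthest above the line.

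Counts by position and host are given as a description, since the same filter chose the piRNAs tested. In the large cluster 636 of 638 tested piRNAs fell, and in the small cluster 44 of 45, against 98.0% of all tested. The 3 exceptions on chromosome IV were 21ur-1430, 21ur-8606 (9 WT reads and 1 prg-1 read, limma adjusted p = 0.116) and cel-piR-15414 (3 WT reads and none in prg-1, limma adjusted p = 0.503). On the other chromosomes 12 of 109 listed loci were tested, of which 1 fell, 3 rose and 8 were not called. That 1 was 21ur-12557 on chromosome V. Since the filter uses all 8 libraries, loci that keep or gain reads in mutants pass it more easily, and these 12 are not a sample of the 109. Within coding introns 229 of 231 fell, outside annotated genes 417 of 419, in coding exons 15 of 20 and in other genes (pseudogenes and noncoding RNA genes) 20 of 25. The 3 exceptions on chromosome IV lie in a microRNA gene, a coding intron and no gene. Every other tested piRNA that did not fall, with all of those in coding exons, lay on another chromosome. These counts therefore do not separate host from chromosome. Median log2 fold changes were -3.10 for introns and for loci outside genes, -2.76 for coding exons and -2.75 for other genes, beside -3.04 for all tested. Sense to their host gene, 126 of 132 fell and 1 rose, and antisense, 138 of 144 fell and 2 rose.

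Levels were also summed by host over all listed loci of the large cluster, with no filter, a summary added after seeing the data. The 245 loci in coding exons kept 1.66% of their WT level, from 296 and 297 RPM in WT to 4.12 and 5.72 RPM in prg-1. On pooled reads this was 1.62% (95% counting interval 0.695% to 3.20%), resting on 8 prg-1 reads at 7 loci. Coding introns (2490 loci) kept 0.401%, from 4191 and 3995 RPM to 18.6 and 14.3 RPM, with an interval of 0.271% to 0.590% that does not reach that of the exons. The 5101 loci outside genes kept 0.374% (interval 0.283% to 0.510%), which does not reach it either. Split by strand on pooled reads, the 143 exon loci in sense kept 2.49% on 5 prg-1 reads (0.803% to 5.89%). The 102 antisense exon loci kept 1.02% on 3 reads, all in prg-1 replicate 2 (0.209% to 3.00%), an interval that overlaps that of the introns. The 182 loci in other genes kept 0.485%, on 2 prg-1 reads, and their interval of 0.0568% to 1.71% overlaps that of the exons, so these groups cannot be ordered. Loci in the sense direction of a host gene kept 0.672% (0.421% to 0.998%) and antisense loci 0.338% (0.194% to 0.573%), intervals that overlap. All these intervals cover counting error only.

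What was left in prg-1 was concentrated on a handful of loci outside the large cluster. Just 9 loci had 3 or more reads over both prg-1 libraries. They held 269 of the 378 prg-1 reads (71.2%), and 0.530% of the WT reads. The prg-1 reads that chose these loci also make up the first share, so the contrast of the 2 shares is partly fixed by the choice. Of these 9, 8 were not on chromosome IV, and the exception was 21ur-1430. Loci with exactly 2 prg-1 reads numbered 9 and loci with 1 numbered 91. By host, the 7 listed loci of other chromosomes that lie antisense to an exon of a long intergenic noncoding RNA (lincRNA) gene took 163 prg-1 reads, rising from 16.4 and 19.7 RPM in WT to 92.8 and 104 RPM in prg-1, nearly all of it at 21ur-9719. The 32 in coding exons in sense had 17.1 and 21.9 RPM in WT and 21.7 and 27.1 RPM in prg-1. The 26 antisense to coding exons had 35.7 and 35.0 RPM in WT and 19.6 and 14.3 RPM in prg-1, and the 26 in no gene 14.1 and 13.1 RPM in WT and 8.25 and 2.86 RPM in prg-1.

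The locus with the most prg-1 reads was 21ur-9719, which lies opposite to an exon of the lincRNA gene linc-22 (chromosome X, 9072394 to 9072414, minus). It had 10.4 and 16.4 RPM in WT and 84.6 and 100.02 RPM in prg-1. Both prg-1 libraries lay well above both WT libraries, 6.87-fold higher on the means (log2 fold change 2.72, SE 0.27, limma adjusted p = 2.1e-04). Its 152 reads were 40.2% of all piRNA reads of prg-1, against 0.0973% in WT. Of the 20 alternative settings, 19 kept this call. It was lost by limma without the filter on low values (adjusted p = 0.0573, the highest of a range). The lowest, 3.8e-72, came from edgeR with DESeq2 size factors, a scaling that raises loci kept in prg-1. A second listed locus in linc-22, 21ur-15566 (9071288 to 9071308, same strand, also antisense to the snoRNA gene F47E1.19), had no WT read and 1 read in each prg-1 library. Of 21ur-9719, the other mutants of the series had 28.5 and 29.6 RPM (prde-1) and 88.0 and 71.2 RPM (kin-3, cultured with 500 µM IAA).

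Both other calls were weaker. 21ur-10824 (chromosome III, 2295350 to 2295370, minus strand, sense in the 3′ UTR of Y54F10BM.9) had 11.9 and 12.04 RPM in WT and 18.6 and 22.9 RPM in prg-1. The groups did not overlap, at a 1.73-fold difference (log2 fold change 0.74, SE 0.20, limma adjusted p = 0.0150). On pooled reads, 34 against 27, the ratio was 1.70 with an interval of 0.997 to 2.93, which includes equality. 13 of 20 alternatives kept this call, and the adjusted p ranged from 8.6e-13 (edgeR with DESeq2 size factors) to 0.514 (DESeq2 Wald test). By limma it ended without WT replicate 1 (adjusted p = 0.0982), WT replicate 2 (0.0888) or prg-1 replicate 2 (0.0752), and without the filter on low values (0.0757). The prde-1 libraries had 37.3 and 45.8 RPM of it and the kin-3 libraries 14.7 and 10.7 RPM. 21ur-9823 lies opposite to an exon of another lincRNA gene, linc-24 (chromosome III, 1371141 to 1371161, minus). It had 0.745 and 2.19 RPM in WT and 4.12 and 2.86 RPM in prg-1. Those values are 3 WT reads and 6 prg-1 reads in all, and the pooled ratio of 2.70 has an interval of 0.577 to 16.7 (log2 fold change 0.91, SE 0.34, limma adjusted p = 0.0438). Only 5 of its 19 alternatives kept the call. The adjusted p ran from 0.00127 (edgeR with DESeq2 size factors) to 0.617 (DESeq2 Wald test), and by limma it was 0.0935 with WT and prg-1 alone in the fit. The call also ended without WT replicate 1, prg-1 replicate 1 or prg-1 replicate 2, with log2 fold changes of 0.48, 0.71 and 1.12. Leaving out any 1 of the prde-1 or kin-3 libraries ended it too.

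21ur-1430 (chromosome IV, 5566428 to 5566448, plus strand) lies inside the annotated hairpin of the microRNA gene mir-790, on the same strand. It had 11.9 and 7.66 RPM in WT and 16.5 and 22.9 RPM in prg-1, so the groups did not overlap, but the difference did not pass the test (log2 fold change 0.95, SE 0.65, limma adjusted p = 0.208). It passed in 5 of 20 alternatives, among them limma with WT and prg-1 alone (adjusted p = 0.0453) and leaving out kin-3 replicate 1 (0.0281) or 2 (0.0256). In fits of all libraries the adjusted p ranged from 3.8e-09 (edgeR with DESeq2 size factors) to 0.340 (DESeq2 Wald test). In prde-1 this locus stood at 218 and 234 RPM, and in kin-3 at 5.87 and 24.9 RPM. Whether reads counted here belong to a piRNA or to the microRNA arm was not tested.

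The other 5 of the 9 did not pass the test in either direction. 21ur-10492 (chromosome II, 13247294 to 13247314, minus strand) had 19.4 and 14.2 RPM in WT and 15.5 and 11.4 RPM in prg-1 (limma adjusted p = 0.251). 21ur-10687 (chromosome II, 13246773 to 13246793, minus strand), which like 21ur-10492 lies antisense to coding sequence of F15D4.5, had 4.47 and 6.57 RPM in WT and 4.12 and 2.86 RPM in prg-1 (limma adjusted p = 0.101). Values of 21ur-10492 overlap between the groups, and those of 21ur-10687 do not, with prg-1 lower. 21ur-10895 (chromosome V, 12386732 to 12386752, minus strand, in no gene) had 11.9 and 5.47 RPM in WT and 7.22 and 2.86 RPM in prg-1, with overlap (limma adjusted p = 0.238). 21ur-12864, in sense in an exon of the C-type lectin gene clec-119, had 4 reads in each group, all 4 of the WT reads in replicate 2. 21ur-13684, antisense to exons of linc-59 and of a pseudogene on chromosome V, had no WT read and 3 reads in prg-1 replicate 1. For the loci 21ur-10492, 21ur-10687 and 21ur-10895, the pooled ratio of prg-1 to WT was 0.797 (interval 0.454 to 1.37), 0.676 (0.208 to 1.95) and 0.579 (0.234 to 1.32). Each of these intervals includes equality. The loci were named for their prg-1 reads, so these ratios may come out too high. With TMM rescaling the log2 fold changes of these loci turned positive (1.26, 0.76 and 0.72). TMM divided WT values by 3.64 and 3.62 and prg-1 values by 0.870 and 1.35. These factors were set from the tested piRNAs alone, nearly all of which fell, so any locus that kept its level moves upward.

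**Figure D3:**
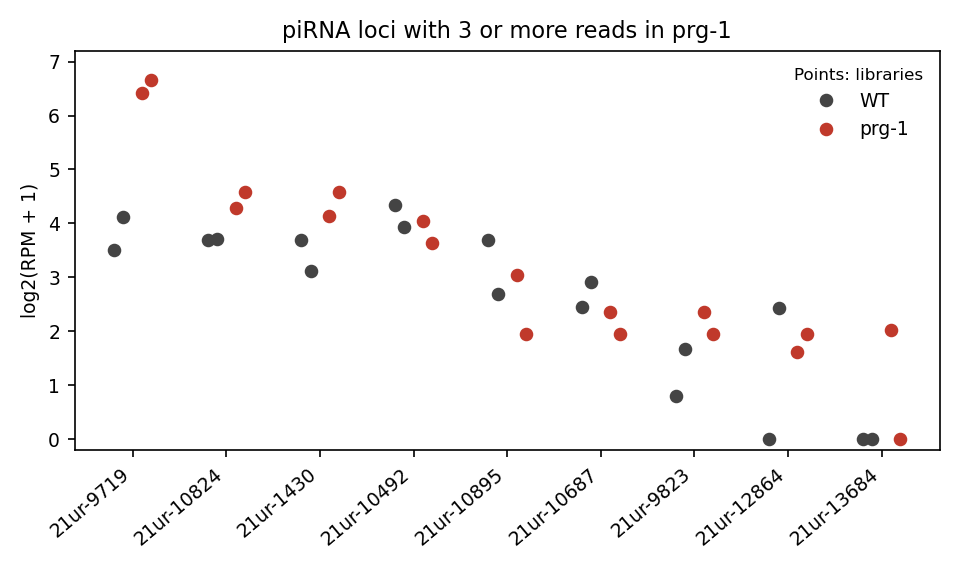
Level, as log2(RPM + 1), of the 9 piRNA loci with 3 or more reads over both prg-1 libraries, ordered by those reads; each point is 1 library. Only 21ur-9719 has prg-1 values far above WT (84.6 and 100.02 RPM against 10.4 and 16.4 RPM); the other 8 have prg-1 means of at most 20.7 RPM.

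In the large cluster the remaining reads were scattered thinly. Its 86 prg-1 reads fell on 79 loci, 72 with 1 read and 7 with 2, and 3 loci had a read in both prg-1 libraries. The 55 reads of prg-1 replicate 1 hit 51 loci and the 31 reads of replicate 2 hit 31. So few reads would hit nearly as many loci as there are reads from a WT library too, and these numbers do not compare the profiles. Among the loci with 2 reads were 21ur-5101 (14298018 to 14298038, antisense within an intron of Y64G10A.7), with 45.4 and 42.7 RPM in WT and 2.06 and 0 RPM in prg-1, a pooled ratio of 37.0 (interval 9.98 to 310). 21ur-4052 (15382892 to 15382912) and 21ur-3180 (16033552 to 16033572), in no annotated gene, had WT means of 20.9 ± 3.16 and 14.8 ± 2.29 RPM and 1 read in each prg-1 library. 21ur-3229 (13810297 to 13810317) also had 1 read in each prg-1 library, and no WT read. These 4 were named after their values were seen.

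The share that remained was larger at loci rare in WT. Loci of the large cluster were sorted into classes by their reads in WT replicate 1, and each class was then read out in WT replicate 2 and in prg-1, so that the sorting library was not also the comparison. The 148 loci with 20 or more reads in WT replicate 1 held 4357 RPM in WT replicate 2 and 7.22 and 7.14 RPM in the prg-1 libraries, so that 0.165% was left (95% counting interval 0.0852% to 0.289%). At the other end, the 4741 loci without a read in WT replicate 1 held 1163 RPM in WT replicate 2 and 19.6 and 15.7 RPM in prg-1, leaving 1.55% (1.04% to 2.22%). Shares in between were 0.942% for loci with 1 read (0.499% to 1.62%), 0.524% for 2 to 4 reads (0.305% to 0.842%), 0.208% for 5 to 9 reads (0.0764% to 0.455%) and 0.244% for 10 to 19 reads (0.105% to 0.483%). The interval of loci without a read overlaps that of no class with 2 or more reads, and the 3 most abundant classes cannot be ordered. These classes were set after seeing the data.

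Sorting by WT replicate 2 and reading out in replicate 1 gave the same picture. There the 81 loci with 20 or more reads kept 0.124% (0.0497% to 0.255%) and the 5219 loci without a read kept 1.33% (0.914% to 1.88%). Each prg-1 library showed it alone: loci without a read in WT replicate 1 kept 1.69% in prg-1 replicate 1 and 1.35% in replicate 2, and loci with 20 or more reads 0.166% and 0.164%. As a share of reads, loci without a read in WT replicate 1 made up 9.71% of the large cluster reads of WT replicate 2 and 34.9% of those of prg-1 (30 of 86; exact interval 24.9% to 45.9%). Counted per locus the order is the reverse, since rare loci are many: 0.591% of the 4741 loci and 6.08% of the 148 had a prg-1 read. Loci with no read in either WT library, 3941 in number, held 24 of the 86 prg-1 reads on 23 loci.

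The same share in the other mutants was 27.8% in prde-1 (64 of 230 reads; 22.1% to 34.1%) and 9.76% in kin-3 with IAA (4 of 41; 2.72% to 23.1%). With the loci chosen for no read in WT replicate 2 it was 12.1% in WT replicate 1, 38.4% in prg-1, 35.2% in prde-1 and 34.1% in kin-3. A higher share at loci rare in WT was thus not seen in prg-1 alone, and whether the mutants differ in it was not tested. Levels of a single read in a library of this depth lie near 1 RPM, and the part that misassigned or mismapped reads could have in them was not tested.

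**Figure D4:**
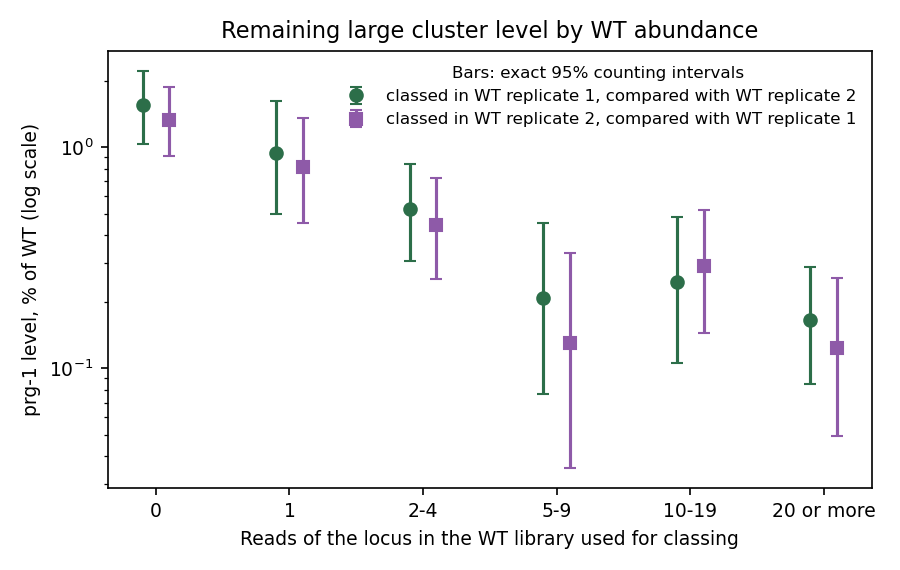
Level of the large cluster remaining in prg-1 as a percentage of WT (log scale), for loci classed by their reads in 1 WT library and compared with the other WT library; bars are exact 95% counting intervals on pooled prg-1 reads. The share falls from 1.55% and 1.33% at loci without a read in the classing library to 0.165% and 0.124% at loci with 20 or more.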

How the data were processed

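Small RNAs of whole worms were isolated with a kit, treated with the polyphosphatase PIR-1, which lets triphosphorylated small RNAs be ligated, joined to adaptors and sequenced, per the labels' protocols. Cutadapt 1.18 and Bowtie 1.2.1.1 were used, per the submitters' processing notes. Their settings, the genome build and how multiply matching reads were handled are not given in the sources. The authors deposited RPM values, with a column for each library; what the library total covers is not stated. All positive values (100%) were whole multiples of the smallest in their column (tolerance 0.01 reads), which gave reads and totals.

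Coordinates matched piRNA genes of Ensembl release 115 (WBcel235) for 9620 of 9742 loci, and names and hosts come from there. Lists by first base and upstream motif were not run, as no sequence was used.

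Limma 3.58.1 (R 4.3.3, trended prior) was fitted to log2(RPM + 1) with genotype as factor, so SE and p also depend on the prde-1 and kin-3 libraries. Adjustment was by Benjamini-Hochberg at 0.05, two-sided. Whether libraries of a genotype are separate cultures is not stated, and p-values may then reflect technical spread only. A chi-square test of their reads gave p = 0.141 in WT (647 piRNAs) and 0.711 in prg-1 (4 piRNAs), so the WT pair showed no difference beyond sampling noise. The prg-1 test rests on too few piRNAs to show either. Totals differ within each pair, and all libraries were kept.

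Counting intervals are exact at 95% (SciPy 1.17.1), and the floor for no read is 3 pooled reads; with no molecular identifiers in the labels, both cover counting error only. Alternatives were pseudocounts, filters, TMM, edgeR 4.0.16 and DESeq2 1.42.0 on recovered reads, a replicate block, WT and prg-1 alone, and each library left out. Limma with and without the block, and edgeR with the deposited totals, were tried on simulated data with changes set at some loci only. In the real data nearly all tested piRNAs fell, a setting not simulated. The TMM, DESeq2 and DESeq2 size factor fits were not simulated either. Named piRNAs are the 10 strongest falls and up to 10 rises among calls whose prg-1 values lie beyond both WT values, the 10 highest WT means, loci with 3 or more prg-1 reads, the highest WT mean per region, 21ur-1 and 21ux-1 (not analysed here); 21ur-8606, cel-piR-15414, 21ur-12557 and 21ur-15566 were named after their values were seen. Members and lists were chosen with earlier results of these data known.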

Additional observations from a re-analysis of the deposited data

How the results depend on the processing

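The 681 piRNAs called lower became 2208 without the filter (4878 tested), 27 at a mean of at least 10 RPM (31 tested) and 1314 with the filter on the 4 WT and prg-1 libraries (1367 tested), as the number tested changed. They became 115 by edgeR with DESeq2 size factors and 7 by the DESeq2 Wald test; the cause was not tested. edgeR with the deposited totals gave 683, and a DESeq2 likelihood-ratio test of WT and prg-1 alone, chosen after seeing the data, gave 668. Leaving out each library gave 677 to 683. The 3 calls higher became 5 with TMM, 9 by edgeR with DESeq2 size factors, 1 by the DESeq2 Wald test and 1 by the likelihood-ratio test, and 1 to 3 with a library left out: 1 without WT replicate 1 and 1 without prg-1 replicate 2, both times 21ur-9719. The median log2 fold change of the 695 tested piRNAs, -3.04, was -1.60 with TMM, -6.18 and -1.33 with pseudocounts of 0.1 and 5, -6.89 by edgeR, -4.55 by edgeR with DESeq2 size factors and -5.08 by the DESeq2 Wald test. Rescaling turned the direction of 21ur-10492 (1.26 with TMM, 2.51 by edgeR with DESeq2 size factors), 21ur-10687 (0.76 and 2.22) and 21ur-10895 (0.72 and 2.03); 21ur-12864 ranged from -0.65 to 1.78 with a library left out, lowest without WT replicate 1. Without 21ur-9719 and 21ur-1430 the total was 0.866% of WT, the small cluster 0.824% and the other chromosomes 72.4%. Leaving out a library kept the total at 1.69% to 1.74%, the large cluster at 0.366% to 0.468%, the small cluster at 2.83% to 2.91% and the other chromosomes at 161% to 171%. With those loci out as well, a combination added after seeing the data, the ranges were 0.760% to 0.972%, 0.452% to 1.196% for the small cluster (lowest without prg-1 replicate 1) and 64.9% to 79.9% for the other chromosomes. The number detected per library, 3519 in WT and 60.5 in prg-1 on average, was 2817 in WT thinned to the smallest total, 2704 at 1 RPM or more and 260.5 at 10 RPM or more; in prg-1 it was 4 at 10 RPM or more. It was 3220 to 3818 in WT and 46 to 75 in prg-1 by single library.

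The replicate numbers are shared across genotypes. Deviations of same-numbered WT and prg-1 libraries from their group means had a correlation of -0.03 over 695 piRNAs. Of these piRNAs, 662 had no prg-1 read and so no deviation in prg-1. The correlation therefore cannot show whether the numbers pair the libraries. With the replicate block 682 were lower and 2 higher, the total stood at 1.71%, and the block gave 21ur-10895 a call (adjusted p = 0.0230) and ended that of 21ur-9823 (0.0708). Limma called its prior unreliable in 2 fits. Without WT replicate 1 or 2, 84.2% of the tested piRNAs have no spread left, so calls from those fits, also those counted above, carry little weight. Depth limits what can be said of single loci: 1 prg-1 read is worth 1.03 or 1.43 RPM.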
